A study of Mus musculus with 9 samples.

Results

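The 9 genes described here form the signalling route of thymic stromal lymphopoietin (TSLP): the cytokine Tslp, its receptor chains Crlf2 and Il7r, the kinases Jak1 and Jak2, the transcription factors Stat5a and Stat5b, and the feedback inhibitors Socs1 and Cish. They were taken by gene symbol and not by a cut-off on a measured value, but with earlier results of these data known. All 9 were found among the 36442 genes of the epidermal table and among the 24016 symbols of the table of regulatory T cells (Tregs), where the transcript with the highest mean stood for each symbol. RNA sequencing covered 9 mouse libraries of cells purified by sorting. The 2 Mi2 and 2 WT epidermal libraries were keratinocytes from the skin of adult mice. The Tregs came from lymph nodes that drain the skin, with 2 libraries of TSLPR WT Tregs and 1 of TSLPR-negative Tregs from Mi2 mice and 2 control libraries (Ctl). Chd4 encodes Mi-2β, an ATPase that remodels chromatin, the tables' headers call the Mi2 libraries knock-outs, and Crlf2 encodes TSLPR. The sample labels place the Tregs in lymph nodes, whereas the headers of their columns say skin Tregs. The column taken as TSLPR-negative is headed TMDKO and does not name TSLPR. The header was read as a double knock-out and matched to the only sample titled with both a Mi2 and a TSLPR alteration. All TSLPR-negative values rest on this match. The labels give no strain, age in weeks, promoter or recombinase for the Mi2 alteration, and do not say how TSLPR-negative cells arose or whether replicates were different mice. The p-values therefore measure the spread between these libraries, which may be technical.

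TSLP is a cytokine made by epithelial cells, among them keratinocytes, and is known for promoting type 2 immunity in skin. It binds a receptor built of the TSLPR chain and the IL-7 receptor alpha chain. JAK1 and JAK2, bound to these chains, phosphorylate STAT5, which enters the nucleus and switches on target genes. CISH and SOCS1, both induced by cytokine signals, then dampen the receptor and its kinases.

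The epidermal libraries held between 5682391 and 8913804 reads over genes, and the Treg libraries between 21849381 and 32238992 over transcripts. Values are normalized reads, which are whole reads multiplied by the authors' scaling factor for each library, so levels of different genes are compared per kilobase only. The 2 tables were normalized separately, and tests were made within a table. Chd4 had 734 and 1207 normalized reads in Mi2 epidermis and 1607 and 1942 in WT epidermis, a called fall (log2 change -0.91). In Tregs, whose headers also say knock-out for Mi2, Chd4 had 12374 and 13659 in TSLPR WT Mi2, 15392 in TSLPR-negative and 11757 and 15129 in Ctl libraries. The TSLPR WT Mi2 and Ctl values overlapped (log2 change -0.04, not called), so these values do not show a loss of Chd4 in the Tregs. The share of mitochondrially encoded reads was 29.7% and 15.5% in Mi2 epidermis and 13.8% and 12.9% in WT epidermis, with Mi2 replicate 1 apart from the others. Basal keratin Krt14 held between 32291 and 79944 normalized reads in every epidermal library and 0 in every Treg library, where the Treg factor Foxp3 held between 11159 and 15371. Of the 8 keratinocyte genes listed, Krt14, Krt5 and Trp63 were at 0 in every Treg library. Itga6, Epcam and Krt10 had a mean of at least 10 there, and the list summed to between 4632 and 8756 normalized reads. Of the 8 Treg genes listed, Ikzf2, Tnfrsf18 and Foxp3 reached that mean in epidermis, where the list summed to between 496 and 1506.

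The first comparison set Mi2 against WT keratinocytes, the cells in which the ligand is made. Tslp rose, Stat5a and Stat5b fell, and the other 5 genes tested were not called. Calls were made with limma at an adjusted p under 0.05 (Benjamini-Hochberg), over all genes with a mean of at least 10 normalized reads. The 3 members called were 37.5% of the 8 tested, beside 28.2% of all 14461 genes tested. Called higher were 1 member and 15.1% of all genes, and called lower 2 members and 13.1% of all genes. The median log2 change was 0.08 over the members tested and -0.03 over all genes. For 6 of the 8 members, or 75.0%, the Mi2 and WT values did not overlap, as was so for 70.7% of all genes tested.

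Tslp had 2780 and 3132 normalized reads in Mi2 epidermis and 15.9 and 16.0 in WT epidermis. These stood on 2095 and 2299 reads in the Mi2 libraries and on 16 and 22 reads in the WT libraries. The Mi2 libraries lay far above both WT libraries, and within each group the libraries were close together. The means were 2956 ± 249 in Mi2 and 15.9 ± 0.0656 in WT epidermis (SD, n = 2 each), a ratio of 186. The WT SD is less than the worth of a single read (0.992 and 0.726 normalized reads), so it understates the error of the WT mean and the ratio. The log2 change of 7.45 (SE 0.208, limma adjusted p = 2.6e-05) was the number 17 from the top among 14461 genes. The call held under each alternative fit, with log2 changes between 7.14 with a pseudocount of 5 and 7.54 with DESeq2.

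The receptor chains were scarce in keratinocytes. Crlf2 had 23.9 and 35.4 normalized reads in Mi2 epidermis and 18.9 and 24.0 in WT epidermis, and the groups overlapped (log2 change 0.44, SE 0.421, limma adjusted p = 0.463). Il7r, with 7.96 and 15.0 in Mi2 and 2.98 and 5.08 in WT epidermis, was below the mean of 10 needed for a test. Its values rested on 6 and 11 reads in the Mi2 libraries and on 3 and 7 in the WT libraries. Genes of dendritic and Langerhans cells, which are known to carry this receptor, summed to between 577 and 1003 normalized reads over the 10 listed in Mi2 epidermis and between 373 and 377 in WT epidermis. Of these 10, 4 had a mean of at least 10, 1 was called higher and Batf3 was at 0. The sum over 8 T cell genes, of which Thy1 alone reached a mean of 10 and was called higher, was between 821 and 1649 in Mi2 and between 170 and 284 in WT epidermis. Of the 8 genes listed for mast cells and basophils, 6 were at 0 in every epidermal library, Cpa3 and Fcer1a among them. Of the 8 genes listed for type 2 innate lymphoid cells, the 4 tested (Gata3, Rora, Il17rb and Arg1) were called lower, and Il5, Il13 and Klrg1 were at 0 in every epidermal library. Beside these marker counts, 15.1% of all genes tested were called higher and 13.1% lower. The sum over the 8 genes of type 2 innate lymphoid cells was between 2492 and 3539 in Mi2 and between 8351 and 9085 in WT epidermis, most of it Gata3, which keratinocytes also express. The part of other cell types in the Crlf2 and Il7r values was not tested. In sorted bulk samples, fewer cells of a type and less RNA per cell cannot be told apart.

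Of the kinases, Jak1 had 1785 and 1628 normalized reads in Mi2 epidermis and 1129 and 1377 in WT epidermis. The groups did not overlap, but the log2 change of 0.45 (SE 0.200) was not called (limma adjusted p = 0.131). Jak2 had 169 and 180 in Mi2 and 176 and 253 in WT epidermis, with overlap (log2 change -0.27, SE 0.252, limma adjusted p = 0.44).

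Stat5a had 115 and 163 normalized reads in Mi2 epidermis and 295 and 312 in WT epidermis (log2 change -1.14, SE 0.246, limma adjusted p = 0.0166). Stat5b had 110 and 162 in Mi2 and 265 and 339 in WT epidermis (log2 change -1.16, SE 0.271, limma adjusted p = 0.0208). In both genes every Mi2 library lay below every WT library, and Mi2 replicate 1 was the lowest. The pair lie next to each other on chromosome 11 (mm9), with 36781 bases between the transcripts used, 8766 between the nearest annotated ones, and a further 1641 bases from Stat5a to Stat3. Of the 50-base windows of the Stat5a transcript, 15.8% also occur in Stat5b, so some reads may be shared between them. Both calls ended without WT replicate 1 (adjusted p = 0.114 for Stat5a and 0.0848 for Stat5b) and without WT replicate 2 (0.124 and 0.169), and that of Stat5b also ended without the intensity trend (0.0549).

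Among the inhibitors, Socs1 had 47.8 and 53.1 normalized reads in Mi2 epidermis and 29.8 and 34.1 in WT epidermis, without overlap (log2 change 0.64, SE 0.333, limma adjusted p = 0.182). Cish had 65.0 and 154 in Mi2 and 180 and 307 in WT epidermis, also without overlap (log2 change -1.22, SE 0.443, limma adjusted p = 0.0781). Cish was called lower without Mi2 replicate 2 (adjusted p = 0.027), and Mi2 replicate 1, the library with the largest mitochondrial share, held its lowest value.

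**Figure D1:**
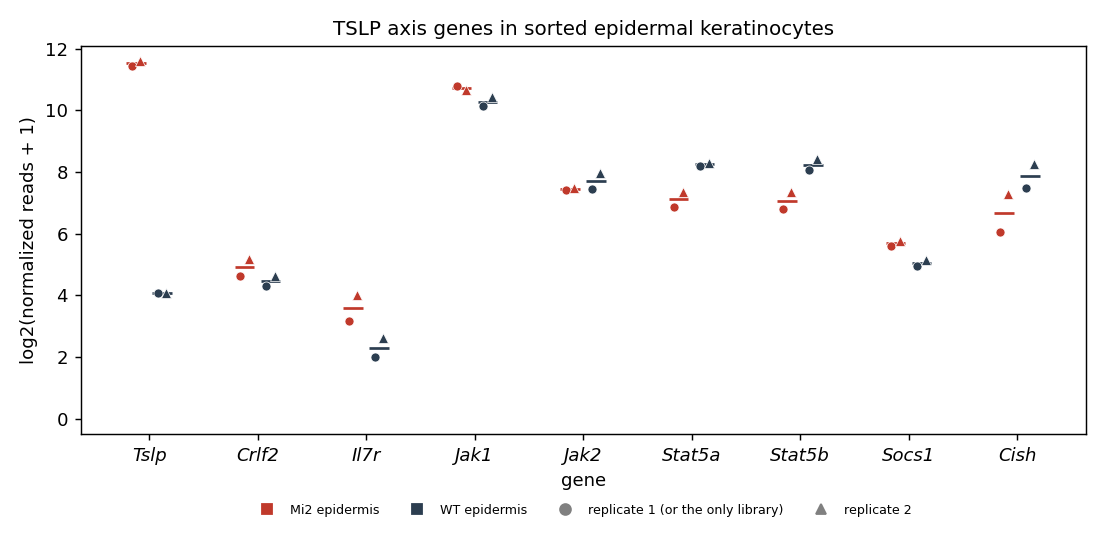
Values of the 9 genes in each epidermal library as log2(normalized reads + 1), with Mi2 left of WT, circles for replicate 1, triangles for replicate 2 and a line at the mean of the log2 values. Tslp stands alone in its distance between Mi2 (2780 and 3132 normalized reads) and WT (15.9 and 16.0), while Stat5a and Stat5b lie lower in Mi2.

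In 7 lists of related genes, 20 of 67 tested genes were called in the epidermis, or 29.9%, which is near the 28.2% of all genes. Calls were made in both directions. Of 8 tested receptor chains of the STAT5 pathway, 2 rose and 1 fell. Il2rg, the chain common to the receptors of interleukin-2 and its relatives, had 468 and 544 normalized reads in Mi2 and 125 and 195 in WT epidermis (log2 change 1.69). Il3ra rose by 2.50 and Prlr, the prolactin receptor, fell by 2.13 on the log2 scale. Of 5 tested relatives among the JAKs and STATs, Stat3 rose by 1.02 and Tyk2 fell by 1.59 on the log2 scale, and 2 were not called. Stat6 fell to 381 and 624 normalized reads in Mi2 epidermis, against 880 and 1075 in WT epidermis (limma adjusted p = 0.0342). Stat3 and the Stat5 genes, neighbours on the chromosome, thus had opposite directions. Of 16 tested SOCS genes and other inhibitors, Cblb rose by 0.68, and Pias3 and Socs7 fell by 1.48 and 0.99 on the log2 scale. With size factors made without mitochondrial genes, this list had 0 genes higher and 4 lower.

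Among 13 tested genes known as STAT5 targets in lymphocytes, 3 rose and 2 fell in Mi2 epidermis, or 38.5% called beside 28.2% of all genes. Lif, a cytokine of the interleukin-6 family, had 77.0 and 70.8 normalized reads in Mi2 and 8.93 and 10.2 in WT epidermis (log2 change 2.83). Myc and Id2 rose by 1.31 and 1.40 on the log2 scale. Ccnd2, encoding cyclin D2, fell to 1482 and 2708 in Mi2 epidermis, against 8234 and 8138 in WT epidermis (log2 change -2.03), and the survival gene Bcl2 fell by 0.99 on the log2 scale. Without WT replicate 1, the list had 1 gene higher and 1 lower.

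Of 23 tested genes reported to control Tslp in keratinocytes, 2 rose, 3 fell and 18 were not called. That is 21.7% called, below the 28.2% of all genes. Klk7, a serine protease of the skin surface, had 523 and 196 normalized reads in Mi2 and 61.5 and 16.0 in WT epidermis (log2 change 3.30). Klk6, of the same family, had 101 and 33 reads in the Mi2 libraries and 0 in both WT libraries. The transcription factor Gata3 fell by 1.45, the calcium sensor Stim1 by 0.92 and the retinoic acid receptor Rarg by 0.90 on the log2 scale. Without WT replicate 1 or without WT replicate 2, 2 were higher and 1 was lower, and with size factors made without mitochondrial genes 2 were higher and 7 lower. Of the other epithelial cytokines linked to type 2 immunity, only Il33 and Il7 of 10 listed were abundant enough to test. Il33 fell to 47.8 and 58.6 normalized reads in Mi2 epidermis, against 789 and 712 in WT epidermis (log2 change -3.80), opposite to Tslp. Il7, the other ligand of the Il7r chain, had 9.29 and 27.2 in Mi2 and 16.9 and 22.5 in WT epidermis and was not called (limma adjusted p = 0.759).

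The genes whose pattern over the 4 epidermal libraries was most like that of Tslp were Stfa3, Fbp1 and Chd5, at root mean square log2 differences of 0.14, 0.21 and 0.30 after centring, among 13108 genes with a mean of at least 20. Stfa3 had 2789 and 2471 normalized reads in Mi2 and 14.9 and 16.0 in WT epidermis. Fbp1 had 158 and 131 in Mi2 epidermis and was at 0 in WT epidermis.

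In Tregs the ligand was not seen. Tslp had 0 reads in each of the 5 libraries, which allows up to between 2.41 and 3.55 normalized reads at 3 reads per library, a limit that covers counting error only. The receptor, kinases, STAT5 genes and inhibitors were all measured. Per kilobase in the Ctl libraries, the mean levels ran from Jak1 (3811) through Il7r (2799), Cish (2016), Stat5b (1151), Socs1 (960), Stat5a (713) and Jak2 (621) to Crlf2 (421). Between neighbours in this order, the ranges of the 2 Ctl libraries overlapped for Jak1 and Il7r, Il7r and Cish, Stat5b and Socs1, Socs1 and Stat5a, and Stat5a and Jak2.

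The next comparison set TSLPR WT Tregs of Mi2 mice against Ctl Tregs. Socs1, Jak1 and Stat5b fell, none rose, and Crlf2, Il7r, Jak2, Stat5a and Cish were not called. The 3 called were 37.5% of the 8 members tested, beside 27.7% of all 12206 genes tested, of which 14.7% were higher and 13% lower. The members had a median log2 change of -0.48, beside -0.01 over all genes. In 6 of 8 members, or 75.0%, the groups did not overlap, beside 65.6% of all genes.

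Socs1 had 365 and 443 normalized reads in TSLPR WT Mi2 Tregs and 967 and 1597 in Ctl Tregs. Both Mi2 libraries were lower than either control, and the controls differed widely from each other. The means were 404 ± 55.0 and 1282 ± 445 (SD, n = 2 each), with a log2 change of -1.62 (SE 0.262, limma adjusted p = 3.9e-04). It was number 459 from the lowest among 12206 genes. The call held with each library left out (log2 changes between -1.99 and -1.26) and ended only when no gene was filtered out (adjusted p = 0.0785).

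Cish, a textbook STAT5 target, had 2907 and 3247 normalized reads in TSLPR WT Mi2 Tregs and 3961 and 4733 in Ctl Tregs. The groups did not overlap, with Mi2 lower, but the log2 change of -0.49 (SE 0.203) was not called (limma adjusted p = 0.0848).

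Among the kinases, Jak1 fell to 12061 and 12821 normalized reads in TSLPR WT Mi2 Tregs, against 20825 and 19362 in Ctl Tregs (log2 change -0.69, SE 0.212, limma adjusted p = 0.0254). Jak2 had 2515 and 2614 in TSLPR WT Mi2 and 3484 and 2764 in Ctl Tregs (log2 change -0.28, SE 0.206, limma adjusted p = 0.348). Every Mi2 value of both kinases lay below the controls, by a narrow margin for Jak2. The Jak1 call ended with any one of the 4 libraries left out (adjusted p between 0.0501 and 0.165), without the filter (0.0903) and without the trend (0.0725).

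Stat5b fell to 3841 and 3970 normalized reads in TSLPR WT Mi2 Tregs, against 5698 and 6356 in Ctl Tregs (log2 change -0.62, SE 0.199, limma adjusted p = 0.0303). Stat5a had 1729 and 2287 in TSLPR WT Mi2 and 2502 and 3012 in Ctl Tregs (log2 change -0.47, SE 0.217, limma adjusted p = 0.127). Neither gene's groups overlapped. The Stat5b call ended without Ctl replicate 2 (adjusted p = 0.104), without TSLPR WT Mi2 replicate 1 (0.158), without replicate 2 of that group (0.144), without the filter (0.0845) and without the trend (0.0966).

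The receptor chains overlapped between the groups. Crlf2 had 816 and 715 normalized reads in TSLPR WT Mi2 Tregs and 395 and 742 in Ctl Tregs (log2 change 0.50, SE 0.300, limma adjusted p = 0.24). Without Ctl replicate 2 it was called higher (log2 change 0.95, adjusted p = 0.0465). Il7r had 16939 and 5188 in TSLPR WT Mi2 and 13149 and 4762 in Ctl Tregs (log2 change 0.24, SE 0.463, limma adjusted p = 0.737). Without TSLPR WT Mi2 replicate 2 it was called higher (log2 change 1.10, adjusted p = 0.00764), and without replicate 1 of that group the change was -0.61. In both groups replicate 1 was far above replicate 2, and the TSLPR-negative library, at 13555, lay near the high pair.

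Genes of other lymphocytes moved in the same comparison. All 8 B lymphocyte genes fell, with sums between 890 and 1141 normalized reads in TSLPR WT Mi2 Tregs, 1021 in TSLPR-negative Tregs and between 2384 and 5131 in Ctl Tregs. Of 7 tested genes of conventional T cells, 6 fell, with sums between 25656 and 29810 in TSLPR WT Mi2, 38402 in TSLPR-negative and between 44991 and 51706 in Ctl Tregs. Of 9 tested dendritic cell genes, 1 rose and 3 fell. Among 5 tested genes listed for type 2 innate lymphoid cells, Gata3, Rora and Klrg1 among them, 4 rose. Beside these counts, 14.7% of all genes tested were called higher and 13% lower. The part of these cells in the results on Socs1, Jak1 and Stat5b was not tested.

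The third comparison set TSLPR-negative against TSLPR WT Tregs, both of Mi2 mice, and the fourth set TSLPR-negative against Ctl Tregs. With 1 TSLPR-negative library, its spread was assumed to be that of the other groups. Where a library of the compared group was left out, each side held 1 library, and the spread came from the third group alone. The comparisons share libraries with each other and with the one before, so their values are given side by side and not as separate evidence. In each, Crlf2 fell and the other 7 tested members were not called. That is 12.5% of the members, beside 0.942% of 12206 genes called against TSLPR WT and 3.15% called against Ctl. Of all genes, 0.737% were higher and 0.205% lower against TSLPR WT, and 2.63% were higher and 0.516% lower against Ctl. The TSLPR-negative value lay outside the range of TSLPR WT for 7 of 8 members, beside 73.2% of all genes, and outside that of Ctl for 5 of 8, beside 72.2%. The members' median log2 change was 0.51 against TSLPR WT and -0.14 against Ctl, beside 0.03 and 0.04 over all genes.

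Crlf2 had 51.5 normalized reads in the TSLPR-negative library, from 61 reads, against 816 and 715 in TSLPR WT Mi2 Tregs and 395 and 742 in Ctl Tregs. The TSLPR-negative value lay below the other 4 libraries, at 0.0673 of the TSLPR WT mean. The log2 change was -3.86 against TSLPR WT (SE 0.367, limma adjusted p = 1.4e-04), number 5 from the lowest, and -3.37 against Ctl (SE 0.367, adjusted p = 8.1e-04). Crlf2 was not at 0, and the labels do not say which part of the gene, if any, was altered. The call against TSLPR WT ended without the filter (adjusted p = 0.452) and without the trend (0.104), and held in the other alternative fits (up to 0.00344). The call against Ctl ended under the same settings (0.351 and 0.0573).

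Socs1 had 994 normalized reads in TSLPR-negative Tregs, against 365 and 443 in TSLPR WT Mi2 Tregs and 967 and 1597 in Ctl Tregs. The TSLPR-negative value was above both TSLPR WT libraries and between the Ctl libraries. The log2 change was 1.30 against TSLPR WT (SE 0.320, limma adjusted p = 0.0742) and -0.32 against Ctl (SE 0.320, adjusted p = 0.78). Against TSLPR WT it was called with DESeq2 (adjusted p = 0.0284). It was not called with edgeR, without the filter, without the trend or with a minimum mean of 1. Leaving out 1 library left a second group with 1 library and gave log2 changes against TSLPR WT between 1.16 and 1.44. The call varied among these fits, so DESeq2 was not the only fit that called it.

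Il7r had 13555 normalized reads in TSLPR-negative Tregs, within the range of TSLPR WT Mi2 Tregs (16939 and 5188) and just above that of Ctl Tregs (13149 and 4762). The log2 changes were 0.53 (SE 0.568, limma adjusted p = 0.806) and 0.78 (SE 0.568, adjusted p = 0.651). Against TSLPR WT the change was 1.39 without TSLPR WT Mi2 replicate 1 and -0.32 without replicate 2, each with 1 library on each side.

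Cish had 4390 normalized reads in TSLPR-negative Tregs, a value above the 2907 and 3247 of TSLPR WT Mi2 Tregs and between the 3961 and 4733 of Ctl Tregs. Jak1 had 17661 in TSLPR-negative Tregs and Stat5b 5553, each above both TSLPR WT Mi2 libraries and below both Ctl libraries. Stat5a had 2462 and Jak2 3236 in TSLPR-negative Tregs, above both TSLPR WT Mi2 libraries. The log2 changes against TSLPR WT were 0.51 for Cish, Jak1 and Stat5b, 0.34 for Jak2 and 0.31 for Stat5a, with limma adjusted p between 0.434 and 0.743. Against Ctl, none of these exceeded 0.19 in size, from -0.19 for Jak1 to 0.06 for Jak2, with limma adjusted p of at least 0.859.

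For Jak1, Jak2, Stat5a, Stat5b, Socs1 and Cish, both TSLPR WT Mi2 libraries were therefore lower than all 3 other Treg libraries. These are 6 of the 8 measured members, or 75.0%, beside 26.1% of the 12206 genes tested. Jak1 and Socs1 differed from this in the epidermis, where both Mi2 libraries lay above both WT libraries, and 15.1% of the 9560 genes tested in both tables had groups that did not overlap in opposite directions. The pattern in Tregs was noticed in the values before it was counted, and it was not tested.

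**Figure D2:**
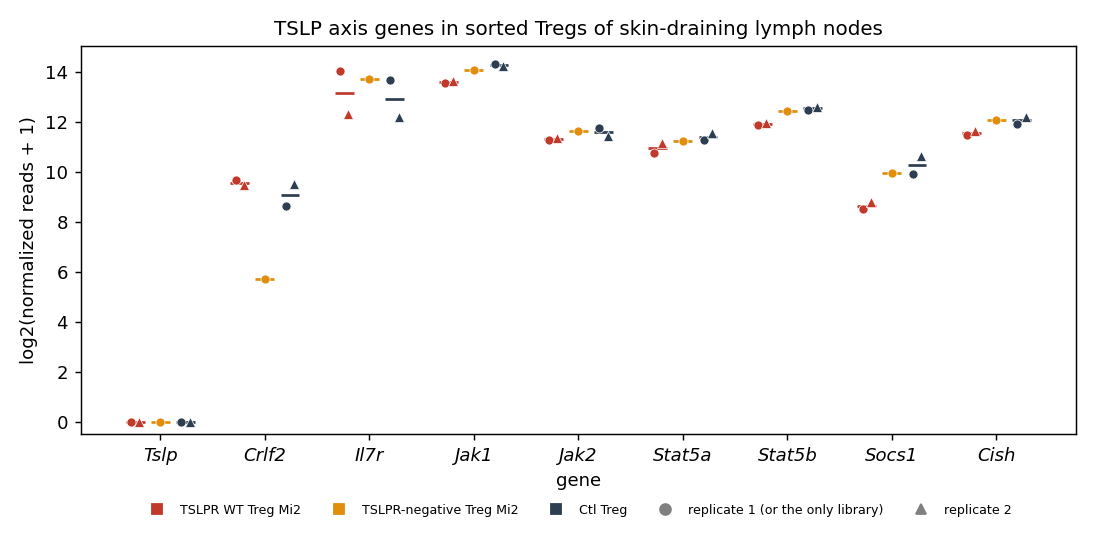
Values of the 9 genes in each Treg library as log2(normalized reads + 1), in the order TSLPR WT Mi2, TSLPR-negative Mi2 and Ctl, with circles for replicate 1 or the lone library, triangles for replicate 2 and a line at the mean of the log2 values. Crlf2 is low in the TSLPR-negative library (51.5 normalized reads) and Socs1 is low in both TSLPR WT Mi2 libraries (365 and 443).

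**Figure D3:**
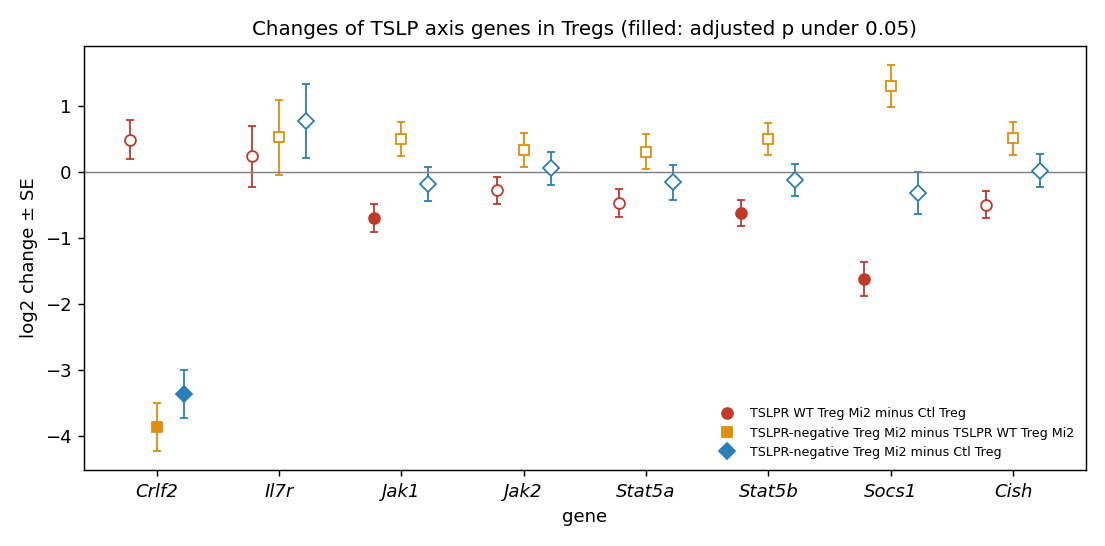
Fitted log2 changes of the 8 genes tested in Tregs with their standard errors, as circles for TSLPR WT Mi2 minus Ctl, squares for TSLPR-negative minus TSLPR WT Mi2 and diamonds for TSLPR-negative minus Ctl, filled where the adjusted p was under 0.05. The filled points are Crlf2 in both comparisons of TSLPR-negative Tregs (-3.86 and -3.37) and Jak1, Stat5b and Socs1 in TSLPR WT Mi2 minus Ctl (-0.69, -0.62 and -1.62).

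Promoters of the members were read from RefSeq (GRCm38.p6), 250 bases before to 50 bases after the start, because STAT5 is known to bind TTCNNNGAA, a palindrome read alike on both strands. The table held 10 promoters for 8 members, all but Tslp. The motif occurred in 2 of these 10, beside 8.30% of 32851 mouse promoters. Il7r had 1 match, at position -142 from the start. Cish had 2, with first bases at positions 1 and 12 counted from 1 at the start, and 0.457% of promoters held 2 or more. The Cish promoter is shown because it holds both matches, and that of Socs1, the member with the largest fall in TSLPR WT Mi2 Tregs, because it holds none. Capitals mark the motif, and a match is a description of the letters and not of binding.
Cish, chr9:107296409-107296708, plus strand: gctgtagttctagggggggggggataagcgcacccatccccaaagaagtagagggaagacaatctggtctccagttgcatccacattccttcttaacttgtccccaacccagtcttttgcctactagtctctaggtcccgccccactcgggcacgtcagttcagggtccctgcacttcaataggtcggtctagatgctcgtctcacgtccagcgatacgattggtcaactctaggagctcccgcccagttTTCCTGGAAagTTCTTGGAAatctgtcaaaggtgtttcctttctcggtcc
Socs1, chr16:10785487-10785786, minus strand: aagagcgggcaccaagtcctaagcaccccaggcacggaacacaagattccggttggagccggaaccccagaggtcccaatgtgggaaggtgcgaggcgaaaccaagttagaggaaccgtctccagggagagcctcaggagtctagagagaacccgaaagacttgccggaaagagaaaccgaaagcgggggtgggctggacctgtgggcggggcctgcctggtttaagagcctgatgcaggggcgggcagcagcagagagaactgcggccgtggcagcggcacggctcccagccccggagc

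In TSLPR WT Mi2 against Ctl Tregs, 26 of 75 tested genes of these lists were called, or 34.7%, beside 27.7% of all genes, and 24.0% were lower, beside 13% of all genes. Of these, 3 of the 6 other JAK and STAT genes listed fell and none rose, with a median log2 change of -0.74. Stat4, which acts downstream of the interleukin-12 receptor, fell to 869 and 891 normalized reads in TSLPR WT Mi2 Tregs, against 2353 and 2111 in Ctl Tregs, and had 1817 in TSLPR-negative Tregs (log2 change -1.34, limma adjusted p = 2.5e-04). Stat2 fell by 1.26 and Stat6 by 1.01 on the log2 scale, and the count of 3 was the same with each library left out. Stat6, which acts downstream of the interleukin-4 receptor, thus fell along with that receptor's chain Il4ra (log2 change -1.14).

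Of 13 tested receptor chains, 2 rose and 3 fell in TSLPR WT Mi2 Tregs, or 38.5% called. Of all genes tested, 27.7% were called, with 14.7% higher and 13% lower. Il9r, the interleukin-9 receptor, had 2261 and 1345 normalized reads in TSLPR WT Mi2 Tregs and 522 and 580 in Ctl Tregs (log2 change 1.66). Il3ra rose by 0.94, and Il21r and Prlr fell by 0.88 and 1.85 on the log2 scale. The Prlr values rested on 7 and 9 reads in the TSLPR WT Mi2 libraries and on 35 and 26 in the Ctl libraries.

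Of 18 tested SOCS genes and other inhibitors, 5 fell and none rose, or 27.8% called, which is near the 27.7% of all genes called in either direction. Called lower were thus 27.8% of the list, beside 13% of all genes. Sh2b3, an adaptor that restrains JAK2, fell by 1.41 on the log2 scale, Socs2 by 0.89, Socs3 by 0.83, the phosphatase gene Ptpn6 by 0.60 and the ubiquitin ligase gene Cblb by 0.56. Socs2 had 718 and 617 normalized reads in TSLPR WT Mi2 and 1400 and 1085 in Ctl Tregs. With 1 library left out, between 1 and 4 genes of the list were called lower. The count was 3 without Ctl replicate 1, 2 without Ctl replicate 2 and 1 without TSLPR WT Mi2 replicate 2.

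Of 22 STAT5 target genes, 4 rose and 7 fell in TSLPR WT Mi2 Tregs, or 11 of 22 called where 27.7% of all genes were, with a median log2 change of -0.10. The rises included Ctla4, an inhibitory receptor of Tregs, with 40011 and 23058 normalized reads in TSLPR WT Mi2 and 13178 and 9247 in Ctl Tregs (log2 change 1.46). Gzmb, encoding granzyme B, and Id2 rose by 1.92 and 1.26 on the log2 scale. The falls included Bcl2, with 995 and 1923 in TSLPR WT Mi2 and 10038 and 6422 in Ctl Tregs (log2 change -2.54), Bcl6 (-2.86) and Lta (-2.13). Without TSLPR WT Mi2 replicate 2, 4 rose and 4 fell. Bcl2 had 6367 normalized reads in TSLPR-negative Tregs and was the gene of the pathway lists called against TSLPR WT (log2 change 2.20, limma adjusted p = 0.0129). Against Ctl, that gene was Gzmb (log2 change 1.34, adjusted p = 0.0437). Each is 1 of 75 tested list genes, or 1.33%, beside 0.942% of all genes against TSLPR WT and 3.15% against Ctl. Of the 14 ligands listed for these receptors, none was abundant enough to test in Tregs.

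Of the 18 tested genes known to control Tslp in keratinocytes, 4 were called, or 22.2%, beside 27.7% of all genes. Rxra and Vdr, nuclear receptors for retinoids and vitamin D, rose by 0.97 and 2.57 on the log2 scale in TSLPR WT Mi2 Tregs. Notch2 fell by 0.86, and Tlr3 had 1 and 2 reads in TSLPR WT Mi2 and 30 and 25 in Ctl Tregs. Il18 and Areg, the alarmin list's measurable members, were not called in Tregs.

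**Figure D4:**
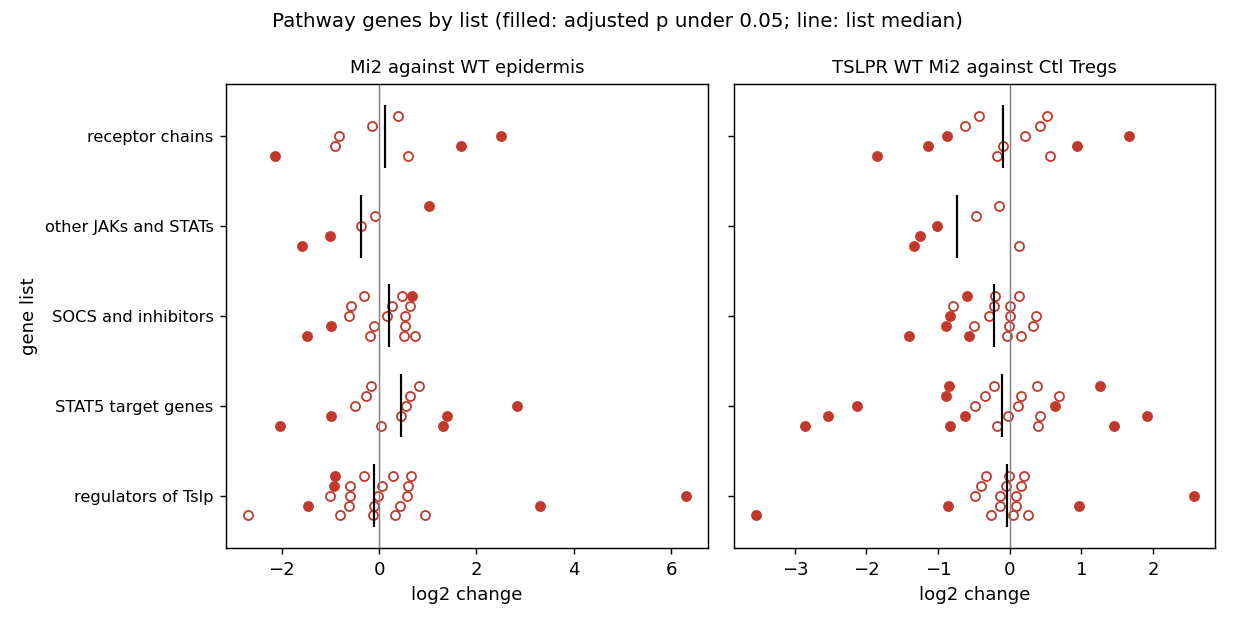
Log2 changes of the tested genes of 5 pathway lists, on the left for Mi2 against WT epidermis and on the right for TSLPR WT Mi2 against Ctl Tregs, where each point is a gene, filled points had an adjusted p under 0.05 and black lines are list medians; Klk6, with 0 reads in WT, stands at its fitted value. The other JAKs and STATs have a median of -0.74 in Tregs, with 3 filled points below 0, and the STAT5 targets spread to both sides in both panels.

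Over the 5 Treg libraries and 11505 genes with a mean of at least 20, Hey1, Slc7a10 and Map2 were nearest to Crlf2 in pattern, at root mean square log2 differences of 0.50, 0.62 and 0.70. Hey1 had 1.69 normalized reads in the TSLPR-negative library. Ambra1, 1700113A16Rik and Fam193a were nearest to Cish, each at 0.03. Ambra1 had 1624 and 1792 normalized reads in TSLPR WT Mi2, 2402 in TSLPR-negative and 2086 and 2554 in Ctl Tregs.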

How the data were processed

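RNA sequencing was analysed in 4 epidermal and 5 Treg libraries. The authors deposited a signal per gene or transcript in each table, whole reads scaled by 1 factor per library. Dividing by that factor gave whole reads for 100.0% of the values above 0, within 0.05 reads. Per the file headers, the Treg values were counted in exons of RefSeq transcripts on mm9 with HOMER, with no strand option, from a command listing 7 libraries, of which 5 are analysed here. For the epidermal table, the counting program, build and strand are not given in the sources used, and a read from an antisense gene may be counted. The submitters' processing notes name bcl2fastq 1.8.3, STAR, DESeq2, mm9 and mm10. Per the labels' protocols, NEXTflex or stranded TruSeq kits were used, without saying which sample had which.

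Values were fitted as log2(value + 1) in limma 3.58.1 (R 4.3.3), with its intensity trend, for genes with a mean of at least 10, with Benjamini-Hochberg adjustment over all genes tested and two-sided tests. Fold changes on this scale understate those of low genes. The epidermal fit had 4 libraries, and 1 fit of 5 libraries gave the 3 Treg comparisons. edgeR 4.0.16 (quasi-likelihood) and DESeq2 1.42.0 on the recovered reads, other filters and scalings, a replicate block and each library left out were alternatives. Reads carry no molecular identifiers, so floors cover counting error only. The depth, between 5682391 and 32238992 reads, limits the precision of low genes such as Il7r in epidermis.

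Named genes were the 9 members, up to 4 tested genes with the smallest p of each pathway list in a comparison, the 3 most abundant of each marker list and the 3 genes nearest in pattern to Tslp, Crlf2 and Cish. Rarg is outside this rule and was chosen after its values were seen, as was the minimum mean of 1. The members and lists were chosen with earlier results of these data known. Some results of the pathway lists are not reported here.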

Additional observations from a re-analysis of the deposited data

Results flagged for a closer look

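In 11 genes among the members and the named genes of the related lists, of 39 tested in both tables, the groups did not overlap in either tissue and the directions were opposite, Mi2 against WT in epidermis and TSLPR WT Mi2 against Ctl in Tregs. Of the 9560 genes tested in both tables, 15.1% had such a pattern, as had 14 of the 65 members and listed genes tested in both, or 21.5%. The named genes were partly chosen for small p-values, so their share is not compared. The difference between tissues was not tested, because the tables were normalized separately. Among the members, Jak1 had log2 changes of 0.45 in epidermis and -0.69 in Tregs, and Socs1 had 0.64 and -1.62. Stat3, a relative of the STAT5 genes, had 1.02 in epidermis and -0.47 in Tregs. Il2rg had 1.69 in epidermis and -0.43 in Tregs. Among the inhibitors they were 0.68 and -0.56 for Cblb, 0.16 and -1.41 for Sh2b3 and -1.48 and 0.36 for Pias3. Myc had 1.31 in epidermis and -0.63 in Tregs. Of the Tslp regulators, Notch2 had 0.60 and -0.86, Rxra had -0.32 and 0.97, and Stim1 had -0.92 and 0.26.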

How the results depend on the processing

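Of 369 alternative values of single members, 331 kept their direction and side of the threshold, 19 were no longer called, 10 became called and 9 reversed. The genes called numbered 4085 in epidermis (1113 to 5815 with 1 library left out), 3383 for TSLPR WT Mi2 against Ctl (2504 to 2742), 115 for TSLPR-negative against TSLPR WT (159 to 453) and 384 for TSLPR-negative against Ctl (372 to 687). The lowest epidermal counts, 1113 and 1441, came without WT replicate 1 and WT replicate 2. Members called numbered 3 in epidermis (1 to 4), 3 (1 to 2), 1 (2 to 2) and 1 (1 to 1) in the same order. With no filter, limma called 0 genes in each Treg comparison, although 5043, 1741 and 1942 had an unadjusted p under 0.05, and hence 0 members. With the filter, edgeR called 3390, 120 and 407 genes and DESeq2 3182, 236 and 455. A minimum mean of 1 left 14 genes for TSLPR-negative against TSLPR WT and 208 against Ctl. Without the trend these were 3 and 1, members called numbered 1, 0 and 0 in the Treg comparisons, and Crlf2 against TSLPR WT (-3.86) had an adjusted p of 0.104, as it had 0.452 with no filter. DESeq2 called 236 genes and 2 members there.

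Il7r reversed for TSLPR WT Mi2 against Ctl to -0.49 without Ctl replicate 2 and to -0.61 without TSLPR WT Mi2 replicate 1, in a range up to 1.10. For TSLPR-negative against TSLPR WT it ranged from -0.32 (without TSLPR WT Mi2 replicate 2) to 1.39. For TSLPR-negative against Ctl, Jak2 was -0.0101 with DESeq2 and ranged from -0.11 without Ctl replicate 2 to 0.23 with 1 library left out. Socs1 ranged from -0.68 to 0.0394 (without Ctl replicate 2). Cish was -0.0109 with edgeR and -0.0444 with DESeq2, and ranged from -0.11 (without Ctl replicate 1) to 0.15. None of these reversed values was called. The cause of the changes was not tested.

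Leaving mitochondrial genes out of the epidermal scaling moved the median log2 change of all genes to -0.26 and gave 1546 genes higher and 2730 lower, against 2185 and 1900, with the members' calls unchanged at 1 higher and 2 lower. The replicate numbers name no shared animal, and same-numbered libraries deviated together at 0.12 in epidermis and 0.09 in Tregs. With the replicate block, 5170 genes and 4 members were called in epidermis, with Cish added, and 4361 genes and 5 members for TSLPR WT Mi2 against Ctl, with Stat5a (adjusted p = 0.0432) and Cish (-0.49, 0.0277) added. No block could be fitted for TSLPR-negative Tregs, which have 1 library. Depth limits Il7r in epidermis and Tslp in Tregs.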
